A study of Mus musculus with 22 samples.

Results

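Microexons are exons so short that they code for only a few amino acids. Here they were taken as the skipped exons of at most 27 nucleotides (end minus start plus 1 of the middle exon of an event) among cassette-exon events deposited for mouse embryonic stem (ES) cells. The rule found 448 of 10873 events, which stand for 422 distinct exons in 346 genes. An event is 1 cassette exon with its 2 neighbouring exons, so an exon flanked by different neighbours gives several events that share reads. Of the 448 events, 444 lay in 1 gene and 4 in several, and 182 (40.6%) were listed in all 7 deposited libraries, against 56.5% of all events.

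In vertebrates, microexons are known above all from neurons, where the splicing factor Srrm4 promotes their inclusion and Ptbp1 represses it in other cells. Most of them keep the reading frame and change the surface of a protein, often one of vesicle traffic, the cytoskeleton or cell signalling. A short exon offers little room for splicing enhancers, and a sequencing read that shows its inclusion either ends inside it, on few bases, or spans both of its junctions, so read length can matter for its detection.

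The study set splicing in cells without DNA methylation beside splicing after loss of HP1 proteins, which read methylated histone H3. The 14 RNA samples formed 7 groups of 2 replicates that the authors pooled before deposit, so every group was 1 library without a replicate measurement. WT was the R1 ES cell line, and TKO was an ES cell line without the DNA methyltransferases Dnmt1, Dnmt3a and Dnmt3b. Both were untransfected and were read as single-end reads of 50 bases. A single siRNA, for HP1alpha, HP1beta or HP1gamma, was given to WT cells at 90 nM, and the 3 together at 60 nM of each (the triple knock-down). TKO cells were transfected with the 3 siRNAs at 80, 80 and 120 nM. RNA of the 5 knock-downs was taken 48 h after transfection and read as paired-end reads of 101 bases. All cells grew on gelatin with LIF and without feeder cells. The labels name no control siRNA. Knock-down, transfection and read length therefore cannot be told apart wherever a transfected library is set beside an untransfected one. WT and TKO are 1 cell line each, so a difference between the lines cannot be told apart from the loss of the methyltransferases.

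Reads over all events numbered 25941844 (WT), 25200437 (TKO) and 4677236 to 9750348 (knock-downs). Of 10 ES cell markers, 4 had a listed event (Klf4, Zfp42, Sall4 and Tdgf1), with summed levels of 984 to 1990 RPM (a gene's event reads scaled to all event reads) over the 7 libraries, the lowest in TKO cells under triple knock-down. Zfp42 was at 563 (WT), 817 (TKO) and 185 to 230 RPM (knock-downs), and Tdgf1 at 129, 85.8 and 0.0 to 23.1 RPM, while Pou5f1, Nanog and Sox2 had none and could not be checked. Of 9 neuronal markers, 5 had a listed event, at summed levels of 99.3 (WT), 117 (TKO) and 0.0 to 29.6 RPM (knock-downs). The part of such reads in the results was not tested. An event is listed only with at least 100 reads, so 0.0 RPM means that no event of the gene or genes was listed. The knock-down libraries held fewer reads, so this limit stands at a higher RPM there, and weakly read markers can fall below it. Fn1, the only fibroblast marker of 4 with an event, had 289 to 433 RPM. Coordinates are those of mm10.

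The lengths ran from 3 to 27 nucleotides. In all, 339 of 448 events (75.7%, exact 95% interval 71.4 to 79.6) had a length divisible by 3 and so kept the reading frame. This share was 53.5% for exons of 28 to 60 nucleotides, 44.7% for those of 61 to 120 and 46.6% over all events. Among the shortest exons, of 3 to 15 nucleotides, it was 82.2%, and at 16 to 27 nucleotides it was 72.2%. These intervals treat exons as independent draws, which exons of 1 gene are not. The introns on both sides were shorter, with medians of 1564 and 1438 bases against 1985 and 1949 bases for all events. At the limit, the 70 events of 27 nucleotides, just inside, had median levels over libraries from 0.0 to 0.95 with a middle value of 0.135, and the 13 events of 28 nucleotides, just outside, ran from 0.035 to 0.99 with a middle value of 0.29. The middle values were 0.39 at 26 nucleotides (11 events) and 0.06 at 29 nucleotides (9 events), so neighbouring lengths varied in no one direction.

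**Figure D1:**
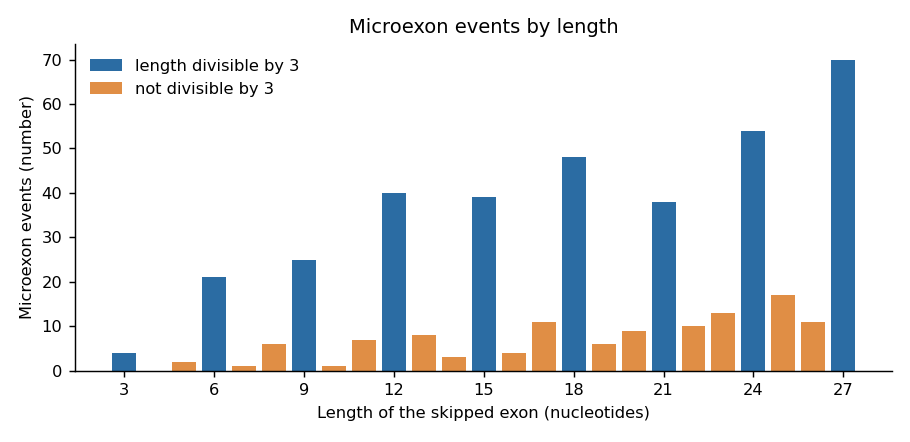
Number of microexon events (vertical axis) by length of the skipped exon in nucleotides (horizontal axis), with lengths divisible by 3 in blue and others in orange. The highest bars stand at 27 (70 events), 24 (54) and 18 (48), all in frame, while no length out of frame reaches more than 17 events.

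Several genes held more than 1 microexon: 64 genes held at least 2 distinct ones and 10 held at least 3. Clasp1, which binds growing microtubule ends, and Macf1, a giant linker of actin and microtubules, held 4 each. Only 1 exon of the set lay within the RefSeq promoter sequences given for this work, so its bases can be shown as an example of the scale: the exon of 20 nucleotides of Pgap2, a gene of GPI-anchor maturation, at chr7:102222782-102222801 on the plus strand (RefSeq, GRCm38.p6). Capitals mark the exon, and lower case marks the last bases of the intron before it and the first bases of the intron after it.

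Pgap2: acagGTGATGGCATGCAGCCACAGgtaaga

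The intron before the exon ends in ag and the intron after it begins with gt, the usual ends of introns. No read in WT or TKO told inclusion of this exon from skipping, in either of its 2 events, although each had enough reads over its neighbours to be listed.

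The deposited inclusion level is the share of transcripts, from 0 to 1, that include the exon. Reads that fit inclusion alone (inclusion reads) and skipping alone (skipping reads) are called informative here. Microexons were mostly skipped. Their median level was 0.06 (WT) and 0.05 (TKO), against 0.68 and 0.71 for all events, and 0.08 to 0.11 for the knock-downs, against 0.64 to 0.66. Among the exons with at least 20 informative reads in a library, the median level was lower, at 0.02 (WT and TKO) and 0.03 (each knock-down), against 0.81 to 0.89 for all events with as many reads. Below a level of 0.1 were 60.0% (WT), 57.9% (TKO) and 47.3% to 50.9% (knock-downs) of the listed microexons. Of the 182 listed in all 7 libraries, 72 (39.6%) were below 0.1 in each, against 16.2% of all events, and 2 (1.1%) were above 0.9 in each, against 18.5%. The events in frame had a lower median level (0.07) than those out of frame (0.195). These medians cover every event, also those without an informative read, and were not compared at equal coverage or length.

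Depth limited these levels. The median microexon had 28 (WT), 30 (TKO) and 16 to 21 (knock-downs) informative reads, against 96, 100 and 48 to 66 over all events. The deposited interval had a median width of 0.12 and 0.11 for the untransfected libraries and of 0.18 to 0.22 for the transfected ones. In WT, 86 of 417 listed microexons had no informative read at all, and in TKO 90 of 432; the deposited level then rests on reads that fit both isoforms. In the knock-downs this held for 12 to 23 microexons. At least 20 informative reads were present for 290 events in 1 library or more (64.7%, against 81.6% of all events), and for 77 in all 7 (17.2%, against 39.7%).

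Read length could be compared with detection by looking for any inclusion read. Of the listed exons of 3 to 9 nucleotides, 7.41% had an inclusion read in WT and 6.78% in TKO, against 23.1% to 29.2% in the 5 libraries of 101 bases. At 10 to 15 nucleotides the shares were 6.59% and 8.6% against 8.06% to 12.3%, at 16 to 21 nucleotides 22.7% and 22.1% against 22.5% to 27.1%, and at 22 to 27 nucleotides 42.6% and 44.3% against 43.7% to 50.0%. The listed sets differed between libraries, so the same exons were also followed. Of the 17 exons of 3 to 9 nucleotides listed in all 7 libraries, 2 had an inclusion read in WT, 3 in TKO and 5 to 7 in each knock-down. These came from 7 genes. Ddx11, a DNA helicase, and Phb2, prohibitin 2 of the inner mitochondrial membrane, had inclusion reads in all 7 libraries. Nsfl1c, a cofactor of the ATPase p97, had them in all but WT. Map4k4, Kif3a, Mgat5b and Septin7 had them in knock-downs alone. At 22 to 27 nucleotides the order was the other way, with 38 and 41 of 69 such exons (WT, TKO) against 30 to 37 (knock-downs). Read length and transfection cannot be told apart here, and the 101-base libraries held fewer reads.

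**Figure D2:**
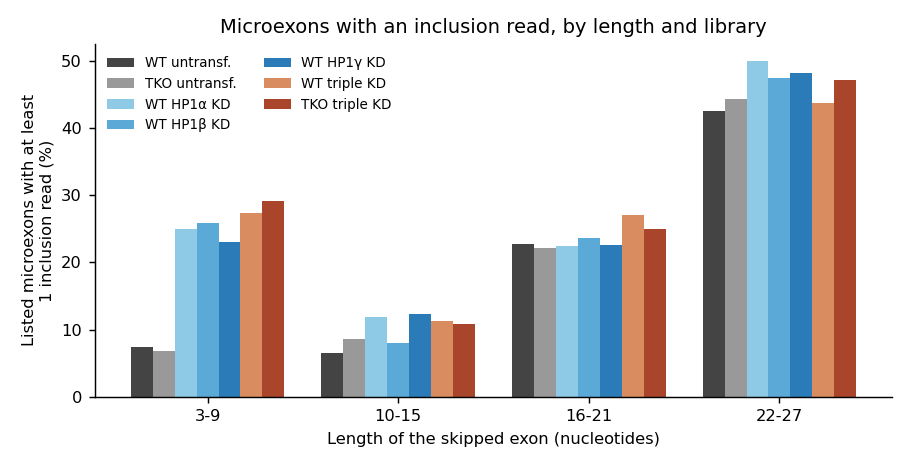
Percent of listed microexons with at least 1 inclusion read (vertical axis) by length in nucleotides (horizontal axis), with 1 bar per library (KD, knock-down; untransf., untransfected; HP1α, HP1β and HP1γ are HP1alpha, HP1beta and HP1gamma). At 3 to 9 nucleotides the WT and TKO bars stand near 7% and the 5 knock-down bars between 23.1% and 29.2%, while at 16 to 21 nucleotides all 7 lie between 22.1% and 27.1%.

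Summed over the microexons, inclusion reads per skipping read were 0.235 (WT), 0.219 (TKO) and 0.554 to 0.638 (knock-downs). Over all events the order was the other way, with 6.25 and 6.82 against 2.96 to 3.22. The higher ratio among microexons rested on 2 exons, which were singled out after their values were seen. Hnrnpc, a nuclear RNA-binding protein, gave 7.69% (WT), 3.62% (TKO) and 57.5% to 69.3% (knock-downs) of the inclusion reads of microexons. Without Hnrnpc and Phb2 the ratio was 0.22 (WT), 0.212 (TKO) and 0.202 to 0.266 (knock-downs). Both platforms then overlapped, and the lower ratio that all events showed in the 101-base libraries was not seen among the remaining 446 microexons. No event was left out of the sum over all events, so the 2 ratios are not alike. The listed sets also differed, with 417 microexons in WT and 205 in the triple knock-down of WT.

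**Figure D3:**
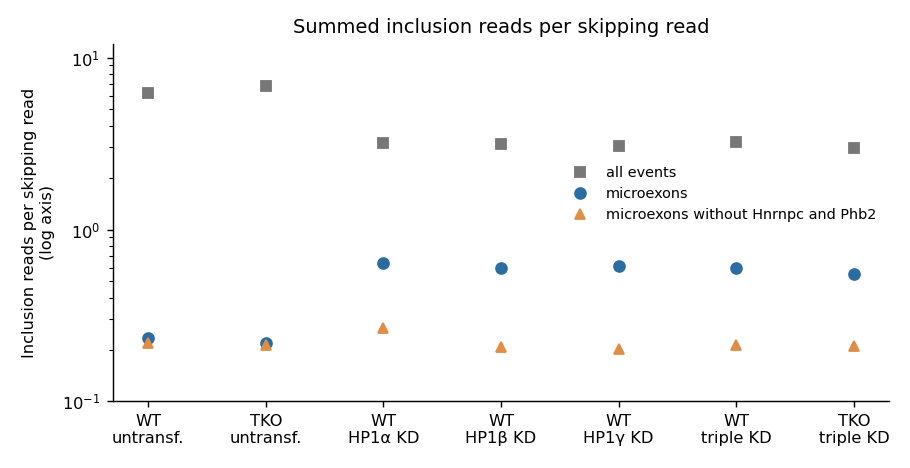
Summed inclusion reads per skipping read (vertical axis, logarithmic) in each of the 7 libraries (horizontal axis, abbreviated as before) for all events (grey squares), all microexons (blue circles) and microexons without Hnrnpc and Phb2 (orange triangles). The squares stand at 6.25 and 6.82 and then at 2.96 to 3.22, the circles stand at 0.235 and 0.219 and then at 0.554 or more, and the triangles stay between 0.202 and 0.266.

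Most microexons with at least 20 informative reads in every library were near 0 throughout. Of these 77 events, 54 had a median level below 0.1, 18 lay between 0.1 and 0.9, and 5 lay above 0.9. Their levels ranged over 0.02 at the median from the lowest to the highest of the 7 libraries, against 0.1 for the 4313 events of any length covered as well, and 57 of the 77 ranged over no more than 0.1. A level near 0 leaves little room to vary: 47 of the 77 had no inclusion read in either untransfected library and 43 had none in any knock-down. In 5 (6.49%: Rps24, Zbtb8os, Mtch2, Phb2 and Hnrnpc) the level in every knock-down was above both untransfected libraries by over 0.1, as in 2.5% of those 4313. In 2 (2.6%: Pecam1 and Senp6) every knock-down was below by as much, as in 10.8%. For Phb2 and Zbtb8os the rise was in the level only: neither had a skipping read in WT or TKO, so their inclusion share could not rise. These shares cannot be compared directly, since a low level has little room to fall and a high one little room to rise. No inclusion read was found in any library for the exon of 12 nucleotides of Kdm1a, a histone demethylase whose microexon is known from neurons (chr4:136563438-136563449), nor for the exon of 15 nucleotides of Sptan1, a spectrin of the membrane skeleton (chr2:30014158-30014172). The Kdm1a exon had 903 (WT), 652 (TKO) and 153 to 332 (knock-downs) skipping reads, which allows an inclusion share of up to 0.332% in WT and up to 1.96% in the shallowest library. For Sptan1 the limits ran from 0.667% to 1.31%. These limits, 3 reads over the informative reads, cover counting error only. Enah, a regulator of actin growth, had 2 exons of 12 nucleotides without an inclusion read, which share 186 to 524 skipping reads. Itsn1, a scaffold of endocytosis, had an exon of 15 nucleotides and one of 8 with the same end, and both shared 34 to 124 skipping reads with no inclusion read.

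A few microexons were included nearly always. The exon of 24 nucleotides of Trim25, a ubiquitin ligase (chr11:89015167-89015190), had levels from 0.91 to 0.99 with 25 to 213 inclusion reads and no skipping read in any library. Srpk2, a kinase of splicing factors, had an exon of 26 nucleotides at 0.91 to 0.98. Gtpbp2, a ribosome rescue factor, had an exon of 27 nucleotides at 0.90 to 0.97.

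The exons with the narrowest ranges among those of intermediate level were in part thinly covered. Diaph1, a formin that nucleates actin filaments, lay between 0.78 and 0.90. Mrpl24, of the large mitochondrial ribosomal subunit, had in 1 of its 2 events a level of 0.27 to 0.33. The inclusion share of its informative reads was lower in every knock-down than in either untransfected library, so only the level was steady. Desi1/Xrcc6 (22 nucleotides, in 2 genes) lay between 0.75 and 0.89 on 6 to 26 informative reads, none of them for skipping. Hira, a histone chaperone, had 0.16 and 0.20 in WT and TKO on 233 and 260 informative reads, and 0.10 to 0.21 in the knock-downs on at most 7. Ppfia4 lay between 0.02 and 0.14 without an inclusion read. The shortest exons, of 3 nucleotides, were in Clasp1, Clasp2, Mon2 and Spp1, and none had an inclusion read in any library. In Spp1, a secreted phosphoprotein, 0 of 597 informative reads in WT showed inclusion, which allows a share of up to 0.503%.

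The difference between untransfected TKO and WT was tested event by event (Fisher's exact test, two-sided, of inclusion against skipping reads), with Benjamini-Hochberg adjustment over all 7695 events of any length that had 20 informative reads in both libraries. A call needed an adjusted p no higher than 0.05 and levels at least 0.1 apart. The test compares 2 pooled libraries, not conditions. Of 213 microexons tested, 9 were higher in TKO and 8 lower, where 3.18% of all tested events were called higher and 1.39% lower. The share called among microexons was thus 7.98% in all, and 131 of the 213 had no inclusion read in either library. Shares by direction cannot be compared directly with those of all events, since low levels have little room to fall and high ones little room to rise. The median absolute difference was 0.01, against 0.02 over all events. In 6 of the 17 calls 1 library held no read of a class that the other held, which was so for 40.6% of all calls of any length. The part of missing junction reads in these calls was not tested.

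In Macf1, the exon of 18 nucleotides (chr4:123364057-123364074) had a level of 0.80 in WT, from 82 inclusion and 11 skipping reads, and 0.38 in TKO, from 52 and 50. It fell by far more than either deposited interval (0.7 to 0.89 and 0.29 to 0.47; Fisher's exact test, adjusted p = 7.65e-07). The knock-down libraries had at most 6 informative reads there. The 3 other microexons of Macf1 were at 0.05 or less in WT and TKO, and the one of 9 nucleotides was at 0.84 under HP1gamma alone, with 27 inclusion and 3 skipping reads, against at most 0.11 on at most 7 informative reads elsewhere.

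Filamin A (Flna, an actin cross-linker; 24 nucleotides, chrX:74232967-74232990) rose from 0.22 (198 inclusion and 527 skipping reads) to 0.36 (221 and 276), with an adjusted p of 4.95e-08 by Fisher's exact test. Diaph1 (27 nucleotides) rose from 0.78 to 0.90 (adjusted p = 0.0082, Fisher's exact test). The exon of p120-catenin (Ctnnd1, 18 nucleotides, chr2:84612532-84612549), which stabilises cadherins, rose from 0.37 to 0.53 (adjusted p = 0.00211, Fisher's exact test). In the centrosome, pericentrin (Pcnt, 21 nucleotides) went from no inclusion read among 68 to 18 among 99, and Cdk5rap2 (27 nucleotides) from 0.07 to 0.22. Neurabin 1 (Ppp1r9a, 24 nucleotides), an actin-binding partner of protein phosphatase 1, was lower, at 0.66 against 0.96, on 33 and 44 informative reads.

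Among genes of traffic, dynamin 2 (Dnm2), the GTPase that cuts vesicles off membranes, had the widest difference. Its exon of 12 nucleotides (chr9:21490658-21490669) had 0 inclusion and 45 skipping reads in WT, at a level of 0.02, and 64 and 45 in TKO, at 0.53 (Fisher's exact test, adjusted p = 9.53e-12). The absence in WT allows a share of up to 6.67%. Another exon of 12 nucleotides of Dnm2, upstream, shares the 45 skipping reads and had no inclusion read in any library. The knock-down libraries had at most 4 informative reads for either exon. Acap2, a GTPase-activating protein of Arf6, rose from 0.01 to 0.11 in its exon of 21 nucleotides and was listed in no knock-down. Mia2, a cargo receptor at exit sites of the endoplasmic reticulum, fell from 0.17 (36 inclusion and 78 skipping reads) to 0.01 (2 and 65) in its exon of 27 nucleotides. A further event of that exon was at 0.10 and 0.01 and missed the size threshold.

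Kinases of the Mark family, which loosen microtubule-associated proteins, moved in opposite directions. Mark2 (27 nucleotides, chr19:7279986-7280012) rose from 0.01, with 6 inclusion and 406 skipping reads, to 0.16, with 63 and 311 (Fisher's exact test, adjusted p = 2.11e-13). Its exon was in 2 further events with too few informative reads to test. Their levels were 0.13 and 0.17 in WT and 0.52 and 0.55 in TKO. For the first of these events, all 5 informative reads from WT and all 17 from TKO showed inclusion. Its inclusion share was thus equal in both lines although its level differed. For the second, WT had 4 skipping reads against 7 for inclusion, while all 17 informative TKO reads showed inclusion. Mark3 (27 nucleotides, chr12:111651958-111651984) fell from 0.99, with no skipping read among 237, to 0.88, with 22 among 245. In the nucleus, the corepressor Ncor1 (27 nucleotides) fell from 0.79 to 0.63, and Max, the partner of Myc (27 nucleotides, chr12:76961263-76961289), from 0.37 (319 and 485 reads) to 0.26 (152 and 380). Senp6, a SUMO protease, rose from 0.45 to 0.76 in its exon of 21 nucleotides (chr9:80098886-80098906; Fisher's exact test, adjusted p = 4.08e-07).

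The gene with most informative reads among these calls was Hnrnpc (26 nucleotides, out of frame, chr14:52098015-52098040). Its level was 0.31 in WT, with 589 inclusion and 468 skipping reads, and 0.16 in TKO, with 257 and 551 (Fisher's exact test, adjusted p = 1.81e-22). Eif4g1, the scaffold of translation initiation, had 135 inclusion and 1016 skipping reads in WT for its exon of 21 nucleotides (chr16:20674786-20674806), and none among 443 in TKO, which allows up to 0.677%. WT was the only 1 of the 7 libraries with an inclusion read for it.

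**Figure D4:**
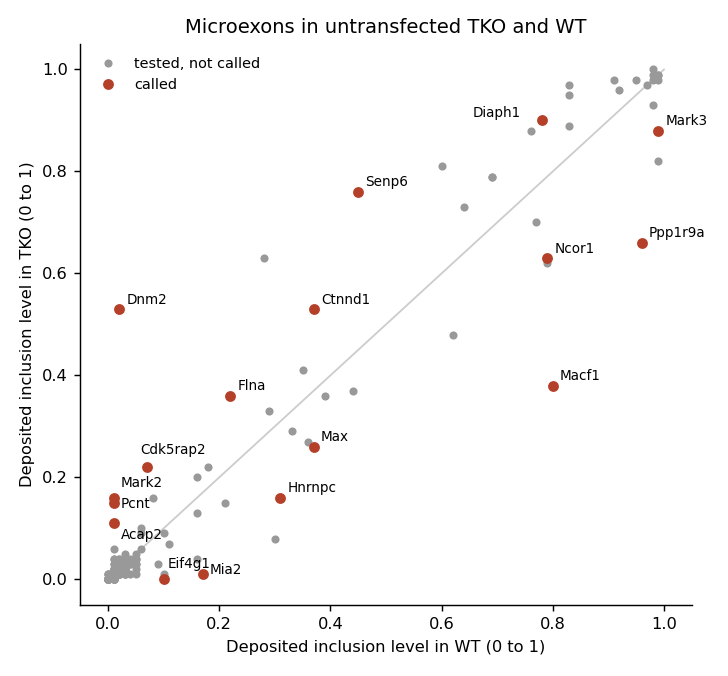
Deposited inclusion level from 0 to 1 of each tested microexon in untransfected WT (horizontal axis) and TKO (vertical axis), with 196 uncalled events in grey, the 17 called ones in red with gene names, and the line of equal levels. Most points crowd near 0, while Dnm2 (0.02 and 0.53), Macf1 (0.80 and 0.38) and Senp6 (0.45 and 0.76) lie farthest from the line among the called ones.

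TKO and WT cells could also be compared under the triple knock-down, read at 101 bases. The siRNA doses were 80, 80 and 120 nM in TKO and 60 nM each in WT, so dose and genotype cannot be told apart in this pair or in its test against the untransfected pair. Of 85 microexons tested, 2 were called, both lower in TKO, where 0.469% of all 4473 tested events were called in either direction. Immt, of the complex that shapes mitochondrial cristae, had a level of 0.33 in WT and 0.01 in TKO, from 38 inclusion and 45 skipping reads against 0 and 80 (Fisher's exact test, adjusted p = 2.29e-11). Adgrl1, the adhesion receptor latrophilin 1, had 0.96 and 0.75 in its exon of 18 nucleotides, from 73 and 1 against 103 and 24 reads (Fisher's exact test, adjusted p = 0.0177). In the untransfected pair both exons had levels of 0.03 or less, so there was no inclusion to compare.

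Of the 17 exons called in the untransfected pair, 10 could be tested here. The level moved in the same direction for 8, in the opposite direction for 1 (Pcnt) and not at all for 1 (Eif4g1), and none was called again. The 2 pairs share no library. Over all events called in the untransfected pair, 143 of 209 kept their direction. Max had 0.29 and 0.17 under the triple knock-down, a difference close to that of the untransfected pair but with an adjusted p of 0.0658 by Fisher's exact test. Ctnnd1 had 0.39 and 0.52, and Mark3 0.88 and 0.76. Senp6 had 0.24 and 0.25, and Hnrnpc 0.59 and 0.58.

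Whether the TKO effect differed between the pairs was tested with Zelen's exact test for a common odds ratio over the 4344 events tested in both, 78 of them microexons. It reached an adjusted p of at most 0.05 for 2 microexons, Hnrnpc and Rpl41, and for 117 events in all, which is 2 of 78 microexons and 117 of 4344 events. Pcnt had an adjusted p of 0.0531 by this exact test. For the other 8 exons called in the untransfected pair and tested here, no difference of the effect was detected at this depth. Eif4g1, 1 of them, had no inclusion read in either library of the triple knock-down pair, so the test could not show a difference. The same holds for any exon without an inclusion read in a pair. Of the 85 microexons tested under the triple knock-down, 50 had none in either library.

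Against untransfected WT, each knock-down library had both higher and lower microexons, where the calls of all events were mostly lower. An exon below a level of 0.1 in the untransfected library cannot be called lower. That was so for 60.0% (WT) and 57.9% (TKO) of listed microexons, against 22.9% and 21.9% of all listed events. Likewise, an exon above 0.9 there cannot be called higher, which held for 3.84% (WT) and 3.47% (TKO) of listed microexons. Over all listed events it held for 36.9% and 38.3%. Neither the shares called lower nor those called higher can therefore be compared directly between microexons and all events. The HP1alpha knock-down had 8 higher and 8 lower of 119 tested, where 1.64% of all tested events were higher and 10.2% lower. The HP1beta knock-down had 9 higher and 4 lower of 109, against 1.92% and 9.91% over all events. The HP1gamma knock-down had 7 higher and 3 lower of 99, against 1.6% and 9.84%. The triple knock-down had 8 higher and 3 lower of 87, against 1.83% and 9.37%. The triple knock-down of TKO cells, set against untransfected TKO, had 4 higher and 5 lower of 96, against 1.31% and 10.9%. The 4 comparisons in WT cells share the WT library, so a repeated call among them is not independent. In each of the 5, knock-down, transfection and read length cannot be told apart. When the odds ratio was shifted by the common median of all tested events, the counts became 11 higher and 5 lower for HP1alpha and 9 higher and 2 lower for HP1gamma.

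Of the microexons called in these comparisons, 3 were higher in all 5. Rps24, a protein of the small ribosomal subunit, had levels of 0.21 (WT), 0.15 (TKO) and 0.79 to 0.84 (knock-downs) for its exon of 20 nucleotides (chr14:24495430-24495449). Its adjusted p was 7.24e-88 in the HP1gamma comparison by Fisher's exact test, from 437 inclusion and 85 skipping reads against 642 and 1190 in WT. A neighbouring microexon of Rps24, of 18 nucleotides, stayed at 0.03 or less in all 7 libraries.

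Mtch2, an insertase of the outer mitochondrial membrane, had 0.29 (WT), 0.33 (TKO) and 0.72 to 0.80 (knock-downs) for its exon of 27 nucleotides (chr2:90852840-90852866). The 5 knock-down libraries did not overlap the 2 untransfected ones. Hnrnpc had 0.31 and 0.16 against 0.58 to 0.62. Its inclusion reads went from 589 and 257 to between 3584 and 7001, and its skipping reads from 468 and 551 to between 1880 and 3213. Both classes were thus several times more numerous in the shallower knock-down libraries. Hnrnpc, Rps24 and Rpl41 have processed gene copies elsewhere in the genome, and how reads were divided between copies was not tested.

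A further group had no inclusion read in either untransfected library. Map4k4, a kinase upstream of stress signalling, had 0 of 257 and 0 of 229 informative reads for inclusion of its exon of 9 nucleotides (chr1:40008331-40008339) in WT and TKO. In the HP1alpha, HP1beta, HP1gamma and triple knock-downs it had 20, 16, 11 and 18 inclusion reads at levels of 0.23, 0.23, 0.18 and 0.31, and TKO cells under triple knock-down had 2 among 30. The 4 WT knock-downs were called, with adjusted p from 7.84e-14 to 4.11e-08 by Fisher's exact test. Zero reads in WT allow a share of up to 1.17%.

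Adgrl1 had 0 of 31 and 0 of 13 informative reads for inclusion in WT and TKO. Its levels were 0.89, 0.91, 0.56 and 0.96 in the WT knock-downs and 0.75 in the TKO knock-down (chr8:83937916-83937933). All 4 comparisons with enough reads were called higher. The exon also lies within Gm10644, and reads of both genes were not told apart. Commd6, of a family that regulates endosomal sorting, had 0 of 23 and 0 of 13 in its exon of 12 nucleotides (chr14:101640288-101640299). It reached 0.92, 0.95 and 0.91 under the HP1alpha, HP1beta and triple knock-downs of WT, on 146 to 289 informative reads. Under the HP1gamma knock-down of WT and the triple knock-down of TKO cells it was at 0.18 and 0.40, on 18 and 12 informative reads, too few to test.

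Immt (15 nucleotides, chr6:71866726-71866740) had no inclusion read among 69 and 109 in WT and TKO, which allows up to 4.35% and 2.75%. It was at 0.82 and 0.83 under the HP1alpha and HP1gamma knock-downs, at 0.28 and 0.33 under the HP1beta and triple knock-downs, and at 0.01 in the TKO knock-down with 0 of 80. Pcnt, at 0.01 in WT, had 0.25, 0.22 and 0.22 in the HP1alpha, HP1beta and triple knock-downs, which were called, and 0.07 in the HP1gamma knock-down, which was not. Ctnnd1 was called higher under HP1beta and HP1gamma, at 0.55 in both against 0.37 in WT, but the deposited intervals overlapped there.

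The lower microexons lay in genes of varied function. Mrpl24 (26 nucleotides, chr3:87919803-87919828) was lower in all 5 comparisons, at 0.39 (WT), 0.36 (TKO) and 0.22 to 0.27 (knock-downs). Another event of the same exon, with a different neighbour, was at 0.33 and 0.29 against 0.27 to 0.33 and was not called. Pecam1, an adhesion molecule of endothelial and ES cells (23 nucleotides, chr11:106662002-106662024), had 0.69 and 0.79 against 0.23 to 0.33 and was called lower in 4 of 5. Mink1, a kinase related to Map4k4 (24 nucleotides, chr11:70609408-70609431), had 0.62 and 0.48 against 0.13 to 0.29 and was lower in all 4 comparisons with enough reads. Senp6 had 0.45 and 0.76 against 0.17 to 0.25 and was lower in 3 of 5. Stx16, a SNARE of the Golgi (12 nucleotides), went from 0.40 to 0.06 in 1 event and from 0.47 to 0.17 in another under HP1alpha and had too few reads elsewhere; the deposited intervals of the latter event overlapped. Eif4g1 was lower under HP1alpha and HP1beta, at 0.0 against 0.10. Mark3 was lower under HP1alpha (0.87), and Nsfl1c (6 nucleotides) was lower in the triple knock-down of TKO, at 0.31 against 0.50, with overlapping intervals, where the TKO level came from 39 inclusion reads and no skipping read.

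Levels and reads disagreed for a few microexons. Rpl41, of the large ribosomal subunit (23 nucleotides), was called lower in the triple knock-down by its level, 0.06 against 0.16, while its inclusion share of informative reads was higher, with 158 inclusion and 4 skipping reads against 1154 and 283. Triml2 (16 nucleotides) was called higher in the triple knock-down of TKO, at 0.48 against 0.31, while skipping reads went from 0 to 19, and the deposited intervals overlapped. Phb2 (6 nucleotides, chr6:124716425-124716430) had a level of 0.28 in WT and 0.63 in TKO although its 23 and 67 informative reads all showed inclusion. It was at 0.99 to 1.00 in the knock-downs on 228 to 782 reads, and it was not called in any comparison. Zbtb8os, of the tRNA ligase complex (25 nucleotides), likewise had 0.36 and 0.27 on 81 and 49 inclusion reads without a skipping read, and 0.89 to 0.96 in the knock-downs. A level more than 0.3 below the inclusion share was found for 6 of 234 microexons with 20 informative reads in WT, 7 of 252 in TKO and 0 to 1 in each knock-down, and for 6.97% to 8.19% of all events.

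**Figure D5:**
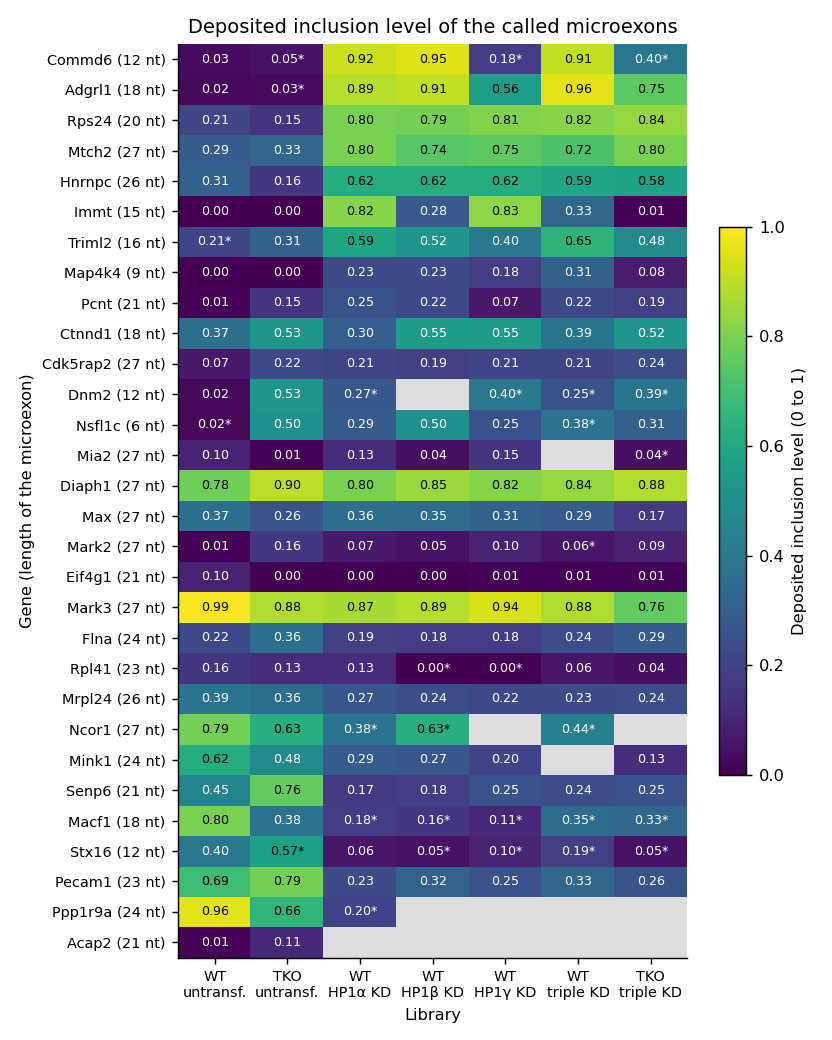
Deposited inclusion level (colour and printed number, 0 to 1) of the 30 microexons called in any comparison, 1 event per exon, in the 7 libraries (columns, abbreviated as before), sorted by the median knock-down level minus the median untransfected level. An asterisk marks fewer than 20 informative reads and grey marks a library without the event. Commd6 and Adgrl1 at the top are at 0.05 or less in both untransfected libraries, and Immt is above 0.8 in the HP1α and HP1γ columns only.

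Many of the largest differences in level between the platforms rested on few reads. In all, 3 of the 182 microexons listed in all 7 libraries were below 0.1 in both untransfected libraries and at 0.5 or more in all knock-downs (1.65%), as were 4 of 6143 events in all. Adgrl1 was 1 of them. Mrpl33, of the mitochondrial ribosome, and Naa20, of an N-terminal acetyltransferase, were the others, with at most 1 informative read in either untransfected library and at most 15 in any knock-down. Ptprs (12 nucleotides), a receptor phosphatase, was at 0.04 in WT and TKO with no informative read there, and at 0.44 to 0.52 in the knock-downs on 5 to 17. In the other direction, Med7 of the Mediator complex (19 nucleotides), in 1 of its 2 events, was at 0.80 (WT), 0.75 (TKO) and 0.03 to 0.08 (knock-downs), with 14 inclusion and 0 skipping reads in WT against 0 and 24 under HP1alpha. It had too few reads in WT to be tested. Med21, of the same complex (24 nucleotides), was at 0.83 and 0.97 against 0.20 to 0.41, on at most 8 informative reads in a knock-down. Blcap/Nnat (27 nucleotides, in 2 overlapping genes), in 1 of its 2 events, was at 0.97 and 0.71 against 0.19 to 0.33. Among the exons with most reads of all classes, Akap1 (13 nucleotides) had at most 3 informative reads in any library, while Ssr1 (15 nucleotides) had 98 to 445 skipping reads and no inclusion read.

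The 4 knock-downs of WT cells share the platform and were all transfected, with 90 nM of 1 siRNA or 60 nM of each of 3. Between them Immt was the only event of any length called, in 4 of the 6 pairs. By a difference of the inclusion share in place of the level, 9 calls were made over the 6 pairs, 4 of them of microexons. In HP1alpha against HP1beta it was at 0.82 and 0.28, from 387 inclusion and 62 skipping reads against 45 and 63 (Fisher's exact test, adjusted p = 7.59e-17), and 0.0171% of all tested events were called. HP1alpha against the triple knock-down gave an adjusted p of 4.38e-11 by Fisher's exact test, with 0.0214% of all events called. HP1beta against HP1gamma gave 4.65e-16 by the same exact test, with 0.019% called, and HP1gamma against the triple knock-down 1.16e-10, with 0.0217% called. HP1alpha against HP1gamma and HP1beta against the triple knock-down gave no call, with 0.0% of all events in both. By Fisher's exact test, 3 of 111 and 3 of 91 microexons had an unadjusted p below 0.05 there, and 147 and 115 events of any length. Over the 6 pairs, 89 to 121 microexons could be tested, and their median absolute difference was 0.01 in each.

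The functional lists, chosen with earlier results known, describe which genes the microexons belong to. They are incomplete, so the counts below hold for the listed genes and not for a function as a whole. Called genes of traffic (Acap2, Mia2 and Stx16) and of the cytoskeleton or centrosome (Flna, Diaph1, Ppp1r9a, Pcnt and Cdk5rap2) are in no list. The same holds for Hnrnpc, Mtch2 and Mrpl24. Over all 13 comparisons, 31 of 238 tested microexons (13.0%) were called in at least 1, where 17.3% of all 8118 tested events were. In the list of the cytoskeleton, adhesion and polarity, 26 genes held 42 events, 40 of them in frame. Of its 24 tested events, 3 were called in any comparison (Macf1, Ctnnd1 and Adgrl1). The list of membrane trafficking and endocytosis had 18 genes with 30 events, 26 in frame, and 1 of its 25 tested events (Dnm2) was called. The list of kinases and other signalling genes had 7 genes with 11 events, all in frame, and 4 of 7 tested were called (Mark2, Mark3, Mink1 and Map4k4). The RNA-binding and translation list had 10 events in 7 genes, and 2 of 5 tested were called (Rps24 and Eif4g1). The chromatin and transcription list had 8 events in 8 genes, all in frame, with 1 of 6 tested called (Ncor1). The mitochondrial list had Immt and Chchd3, both of the cristae complex, and Chchd3 was at 0.02 or less throughout. The median level in untransfected cells was 0.02 for trafficking, 0.04 for the cytoskeleton, 0.055 for kinases, 0.0625 for chromatin, 0.128 for RNA binding and translation, 0.0025 for the 2 mitochondrial exons and 0.085 for the 345 events outside the lists. The remaining 278 genes held 19 called events of 169 tested. Of the 30 exons behind the 31 calls 24 were in frame, where 187 of the 238 tested events were.

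Among known regulators of microexon splicing, 14 of 23 genes had a listed event of any length, 42 events in all, and 12 of 34 tested were called in some comparison, 9 of them lower, 2 higher and 1 in both directions, where 17.3% of all tested events were called in some comparison. Srrm4 itself held a microexon of 16 nucleotides, listed in WT, TKO and the HP1beta knock-down without an informative read. Ptbp1 had an exon of 31 nucleotides at 0.71 (WT), 0.70 (TKO) and 0.89 to 0.94 (knock-downs), called higher in all 5 comparisons with untransfected cells and in none within a platform. Its exon of 78 nucleotides was called lower in the same 5, at 0.65 (WT), 0.56 (TKO) and 0.41 to 0.47 (knock-downs). The TKO level came from 831 inclusion reads and no skipping read, against 1815 and 324 in WT. Level and inclusion share thus moved in opposite directions between WT and TKO. Exons of Rnps1 and Srsf11 were also lower in all 5, at 0.55 and 0.51 against 0.14 to 0.19 and at 0.19 in both against 0.03 to 0.06.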

How the data were processed

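RNA was measured in 14 samples. TopHat2 and Bowtie2 are listed as tools, and mm10 as build, per the submitters' processing notes (versions: not given in the sources used here). All 7 tables deposited are MISO summaries of skipped exons, per the file headers, 1 per group with the replicates pooled by the authors. The deposited inclusion level is a fraction, the authors' posterior mean, with interval bounds whose confidence level is not stated. The deposited text of read classes gave the reads that fit inclusion alone, skipping alone, both or neither, and each listed event has at least 100 reads. An inclusion isoform has 2 junctions and skipping has 1, so the share of informative reads need not equal the level. How the deposited level relates to the read classes in exons such as Phb2 and Zbtb8os was not settled. Gene symbols came from the RefSeq gene table of GRCm38.p6 by position.

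Events were joined by coordinates, and members were taken over the union of the 7 tables. Inclusion and skipping reads were compared by Fisher's exact test (two-sided, scipy 1.17.1, Python 3.11.15, pandas 2.3.3) over all events with 20 informative reads in both libraries, with Benjamini-Hochberg adjustment, and called at an adjusted p of 0.05 and a level difference of 0.1. Shares of events have exact (Clopper-Pearson) 95% intervals. The calls were tried on simulated reads with a known change of 0.3 in 200 events, of which 85.5% to 93.5% were called in the right direction. The simulated level was set equal to the inclusion share, and no variation between replicates was simulated. This trial therefore does not cover gaps between deposited level and share, or replicate error. The 13 comparisons used only the libraries they name. Alternatives were the read minimum, the measure of difference, the deposited intervals, a common shift and 1 event per exon.

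The members and lists were chosen with earlier results of these data known. The exons named were those called within a platform, the 15 with the largest median difference between platforms, the 10 with most reads, the 5 with the narrowest range, the shortest ones and members of the lists. Others were named after their values were seen. The 2 bisulfite and 6 MNase samples were not analysed here.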

Additional observations from a re-analysis of the deposited data

Results flagged for a closer look

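The effect of TKO differed between the untransfected pair and the triple knock-down pair for 2 of 78 microexons by Zelen's exact test, as it did for 117 of 4344 events of any length. An exon without an inclusion read in either library of a pair could not show a difference in this test. The siRNA doses of the triple knock-down were 60 nM each in WT and 80, 80 and 120 nM in TKO, so dose and genotype cannot be told apart in that pair. For Hnrnpc (26 nucleotides) the adjusted p of this exact test was 4.71e-17: the level was 0.31 in WT and 0.16 in TKO without transfection, and 0.59 and 0.58 under the triple knock-down. For Rpl41 (23 nucleotides) the adjusted p of the exact test was 1.21e-07. Its informative reads in untransfected cells were 1154 inclusion and 283 skipping in WT and 740 and 1 in TKO, and under the triple knock-down 158 and 4 against 246 and 9, while its level differed by 0.03 or less in either pair. The cause was not tested for either exon.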

How the results depend on the processing

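The counts of called microexons stayed within 1.5 times of those reported under a difference of the inclusion share, deposited intervals apart, a common shift of the odds ratio and 1 event per distinct exon, in all 8 sets of comparisons. They changed more with the read minimum, which changes how many events are tested. With 50 informative reads the HP1alpha count went from 16 to 10, HP1beta from 13 to 8, the triple knock-down from 11 to 6, and the triple knock-down of TKO from 9 to 5. With 10 reads the triple knock-down of TKO had 15 and the pairs of knock-downs 7 in place of 4. The share in frame was 82.2% with a limit of 15 nucleotides, against 75.7%. By the inclusion share, the calls of Rpl41 and Triml2 turned direction, and those of Diaph1, Mark3 and, in the triple knock-down, Hnrnpc ended. The common shift ended the TKO calls of Diaph1 and Cdk5rap2 and the knock-down calls of Senp6 and Pecam1 against WT and of Stx16 (1 of 2 events) and Triml2. Zelen's exact test gave 2 microexons with 10 or 50 reads and with 1 event per exon, alternatives chosen after seeing the data. No paired analysis was possible because the replicates were pooled before deposit, and leaving out a replicate could not be run for the same reason. Depth limits every level: the median microexon had 16 to 30 informative reads.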
